A study of Homo sapiens with 8 samples.

Results

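Contacts between the sequence upstream of *HBD*, the δ-globin gene, and the locus control region (LCR) of the β-globin locus were counted in CAPTURE-3C-seq lists of WT and BCL11A knockout (KO) HUDEP-2 cells. A contact belonged to the set when the midpoint of one end lay in chr11:5255713-5261213 (hg19), the HBD upstream region, and that of the other end in chr11:5295475-5323175, called the LCR side here, which holds the LCR and the flank beyond its hypersensitive site HS5. Over both lists, 204 of 4896 distinct pairs of ends met this rule. WT held 154 of 2966 distinct pairs (5.19%) and BCL11A KO 51 of 2310 (2.21%), and 1 identical pair was in both. Identical pairs were more common over the whole lists, where 2966 and 2310 pairs made 4896 together.

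The HUDEP-2 line consists of immortalized human cells at an erythroid progenitor stage and has an adult-like globin pattern. In the KO cells the gene of BCL11A was disrupted, and both kinds of cells also carried biotinylated dCas9 with sgRNAs for 4 baits: *HBB*, *HBG1*/*2*, the HBD upstream region and the LCR. The sample labels describe expansion culture for both genotypes, whereas the methods of the study give 5 days of erythroid differentiation before CAPTURE. The authors merged 3 replicates per genotype into 1 list, so that each value below comes from 1 library per genotype and has no replicate error. The tests compare 2 libraries and not the genotypes, and all intervals cover counting error only.

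The LCR is a cluster of DNase hypersensitive sites that acts as the shared enhancer of the β-like globin genes, which are used in turn during development. HS2 and HS3 are its best known enhancers, and HS5 is bound by the insulator protein CTCF. BCL11A is a zinc finger repressor of the fetal *HBG1*/*2* (γ-globin) genes, which binds TGACCA in their promoters, and the sequence upstream of *HBD* has long been studied as a candidate element in fetal globin silencing. A ligated pair records that 2 stretches of DNA lay close together in the nucleus when they were crosslinked.

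The HBD upstream region begins at the start of the canonical *HBD* transcript (chr11:5254068-5255713, minus strand) and, in the annotation, lies inside the span of longer *HBD* transcripts. Windows of 1 kb were set at 1 kb (chr11:5256213-5257213), 2.5 kb (chr11:5257713-5258713) and 3.5 kb (chr11:5258713-5259713) upstream of *HBD*, the 3 anchor sites that the study drew. The study's methods list sgRNA targets of this bait at 1 kb, at 3.5 kb and at a position between them other than 2.5 kb. The windows need not have been targeted equally, and the part of this in the counts was not tested. The −1 kb window overlaps an annotated *HBD* exon, and those at −2.5 and −3.5 kb hold no annotated exon. On the LCR side, windows of 2 kb were set at HS1 (chr11:5296175-5298175), HS2 (chr11:5300975-5302975), HS3 (chr11:5304975-5306975), HS4 (chr11:5308475-5310475) and HS5 (chr11:5311675-5313675). The HS1 to HS4 windows lie in introns of long annotated transcripts of *HBE1* and *HBG2*, and the HS5 window overlaps an exon of the olfactory receptor pseudogene *OR51AB1P*. What remained of the LCR (chr11:5295475-5313775) is called the sequence between the sites, and the flank ran through chr11:5313776-5323175, which holds an exon of the olfactory receptor gene *OR51B4*.

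Each listed end is a stretch of 42 bases, and some of the ends that took part in most contacts of the set are shown to let the sites be seen. They are given on the plus strand of GRCh37, the same build as hg19. Capitals mark matches to GATC, to the BCL11A motif TGACCA, and to GATAA, a form of the site of the erythroid factor GATA1, each on either strand. In these ends only GATC was matched. Of 5800 distinct listed ends, 415 began or stopped exactly at a GATC, against 44 or fewer when all ends were moved by 1 to 3 bases, so stretches from 1 GATC to the next were taken as fragments. On the HBD side, 2 ends are shown.
chr11:5257743-5257784, in the −2.5 kb window: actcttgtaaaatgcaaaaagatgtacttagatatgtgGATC
chr11:5257363-5257404, outside the windows: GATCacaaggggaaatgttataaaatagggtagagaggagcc
On the LCR side the leading ends lay in HS3, between HS2 and HS3, and in HS1, in this order.
chr11:5305798-5305839, in HS3: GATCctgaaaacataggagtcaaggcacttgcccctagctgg
chr11:5304638-5304679, between the sites: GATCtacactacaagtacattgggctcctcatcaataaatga
chr11:5296668-5296709, in HS1: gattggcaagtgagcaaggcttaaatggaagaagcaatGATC

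No single end carried the set. The first of the HBD-side ends was in 3 members in WT and 4 in BCL11A KO, although it was an end of 312 and 363 listed pairs in all. The end in HS3 was in 3 members in WT and 5 in BCL11A KO. In WT, 122 of the 135 distinct HBD-side ends and 142 of the 147 LCR-side ends were used by 1 member, and in BCL11A KO 43 of 45 and 40 of 44 were. The set was thus spread over many ends but not evenly along the region, since the HBD-side end of 72 members in WT and of 8 in BCL11A KO lay between 3.5 and 4 kb upstream of *HBD*.

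Over both libraries together, the most used fragment on the LCR side was chr11:5305798-5306267, inside HS3, with 17 members in each. In WT alone a fragment in HS4, chr11:5309218-5310305, had more, with 18 members against 10 in BCL11A KO. The first 300 bases of the fragment in HS3 hold the LCR-side end of 10 members in WT and of 13 in BCL11A KO. They are printed because HS3 made up more of the set there.
chr11:5305798-5306097: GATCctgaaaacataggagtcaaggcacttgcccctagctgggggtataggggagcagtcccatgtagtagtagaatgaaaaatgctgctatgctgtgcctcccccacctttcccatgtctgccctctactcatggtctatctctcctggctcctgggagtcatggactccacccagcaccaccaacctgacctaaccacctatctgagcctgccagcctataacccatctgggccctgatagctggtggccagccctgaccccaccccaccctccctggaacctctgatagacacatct
The stretch held 1 GATC, 0 TGACCA and 0 GATAA, and its GC content was 56%. Other GATA forms, such as the gatag in the printed letters, were not counted. Of all stretches of 300 bases from 3'HS1, the site downstream of *HBB*, to the end of the flank, 49.9% held GATAA, whereas 14.2% held TGACCA and a larger share, 44%, held GATC.

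The letters of the ends were counted on both sides. GATAA was found in 37 of the 170 distinct HBD-side ends (21.8%), in 13 of the 184 LCR-side ends (7.07%) and in 504 of all 5800 listed ends (8.69%). Of all stretches of 42 bases in the HBD upstream region, 11.2% held it, and of those on the LCR side 8.93%. Over the 4 groups of HBD-side ends the share ran from 19.6% outside the windows to 23.6% in the −3.5 kb window. TGACCA was rare on both sides, in 1 HBD-side end and in 3 LCR-side ends. The GC content was 34.4% on the HBD side and 43.3% on the LCR side. Many HBD-side ends overlap each other, so a single GATAA in the reference can be counted in several ends. These shares describe letters in the reference and were not tested.

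**Figure D1:**
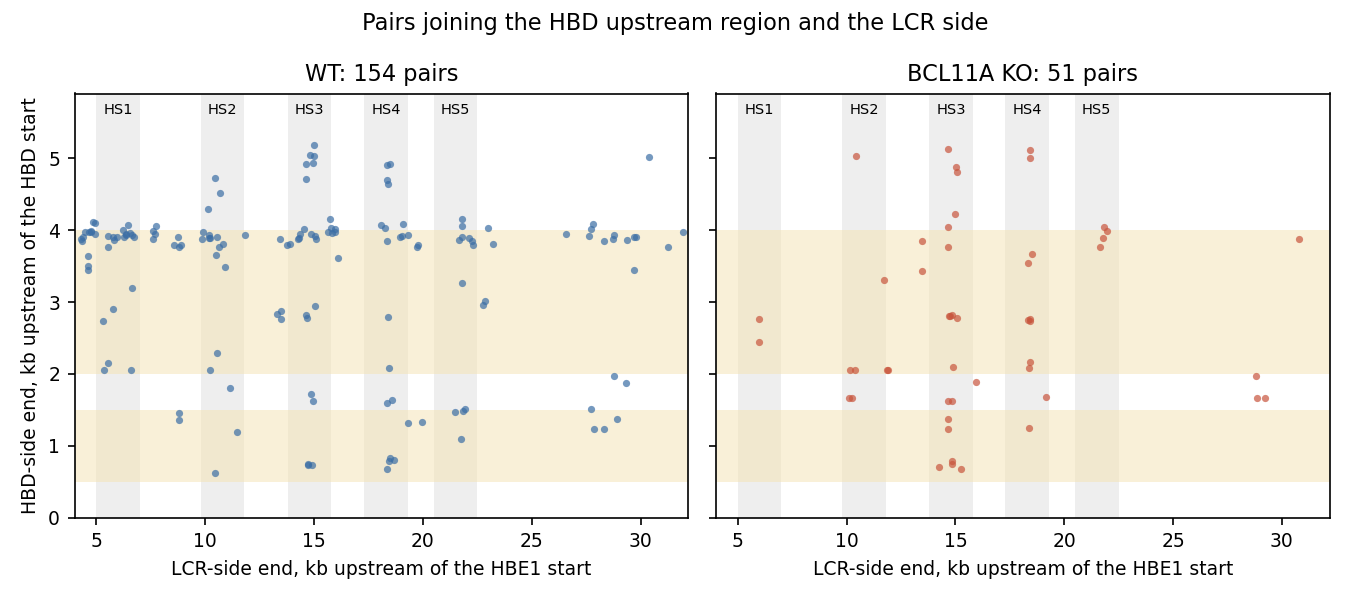
Each point is 1 distinct pair, with its LCR-side end (kb upstream of the *HBE1* start) on the x axis and its HBD-side end (kb upstream of the *HBD* start) on the y axis, in WT (154 pairs) and BCL11A KO (51 pairs). Grey bands are HS1 to HS5 and tan bands the anchor windows, of which those at −2.5 and −3.5 kb adjoin. In WT a row of points just below and at 4 kb runs over the whole LCR side, and in BCL11A KO that row is nearly empty while points above HS3 and HS4 are still there.

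The lists set the precision. WT had 1786 distinct pairs with an end in the HBD upstream region and BCL11A KO 1013. Of these, 951 and 268 left the region, whereas 835 and 745 had both ends inside it. Pairs with an end on the LCR side numbered 1222 and 1233. A count of 3 pairs was taken as the floor, which is 0.168% of the WT pairs and 0.296% of the KO pairs of the HBD upstream region. All 154 and 51 members came from the lists assigned to the HBD upstream and LCR baits. The score of an interaction, a Bayes factor (BF), is capped at 150, and 149 of the members in WT and 48 in BCL11A KO were at the cap, so the score did not rank them. The ends of a member were 35.9 to 63.5 kb apart in WT (median 46.3) and 38.7 to 63.0 kb in BCL11A KO (median 48.7).

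Fewer contacts joined the HBD upstream region and the LCR side in the BCL11A KO library. There were 154 such pairs in the WT library (exact Poisson 95% interval 131 to 180) and 51 in that of BCL11A KO (38 to 67.1), and the intervals did not overlap. As a share of the pairs with an end in the HBD upstream region, taken over distinct pairs of all lists and without the division by bait size of the study's interaction frequency, this was 8.62% in WT (Wilson 95% interval 7.41 to 10) and 5.03% in BCL11A KO (3.85 to 6.56), and the ratio of the KO share to the WT share was 0.584 (two-sided exact Fisher test, adjusted p = 0.00178). With 1-kb bin pairs counted once the ratio was 1.05 and with GATC fragment pairs 0.992 (exact Fisher test, adjusted p = 1 in both), which ended the call. Over all 294 ordered pairs of regions of the locus tested this way, 35% differed at an adjusted p-value under 0.05 and 23.1% did so with the lower share in BCL11A KO, so that a call of this kind was common in these libraries.

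The size and the direction of the change depended on this unit and on what the contacts were divided by. Of the 1222 and 1233 pairs with an end on the LCR side, the members were 12.6% in WT and 4.14% in BCL11A KO (ratio 0.328, exact Fisher test, adjusted p = 5e-13). Of the pairs that left the HBD upstream region they were 16.2% and 19%, and this ratio of 1.18 was not past the threshold (exact Fisher test, adjusted p = 0.439). The same held when only pairs of the region with ends at least 10 kb apart were taken, with 22.2% and 26% (exact Fisher test, adjusted p = 0.436), a denominator under which 32.4% of 287 region pairs were called. The set thus took a smaller share of the contacts of the LCR side in BCL11A KO, and no smaller share of the outward contacts of the HBD upstream region could be detected.

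**Figure D2:**
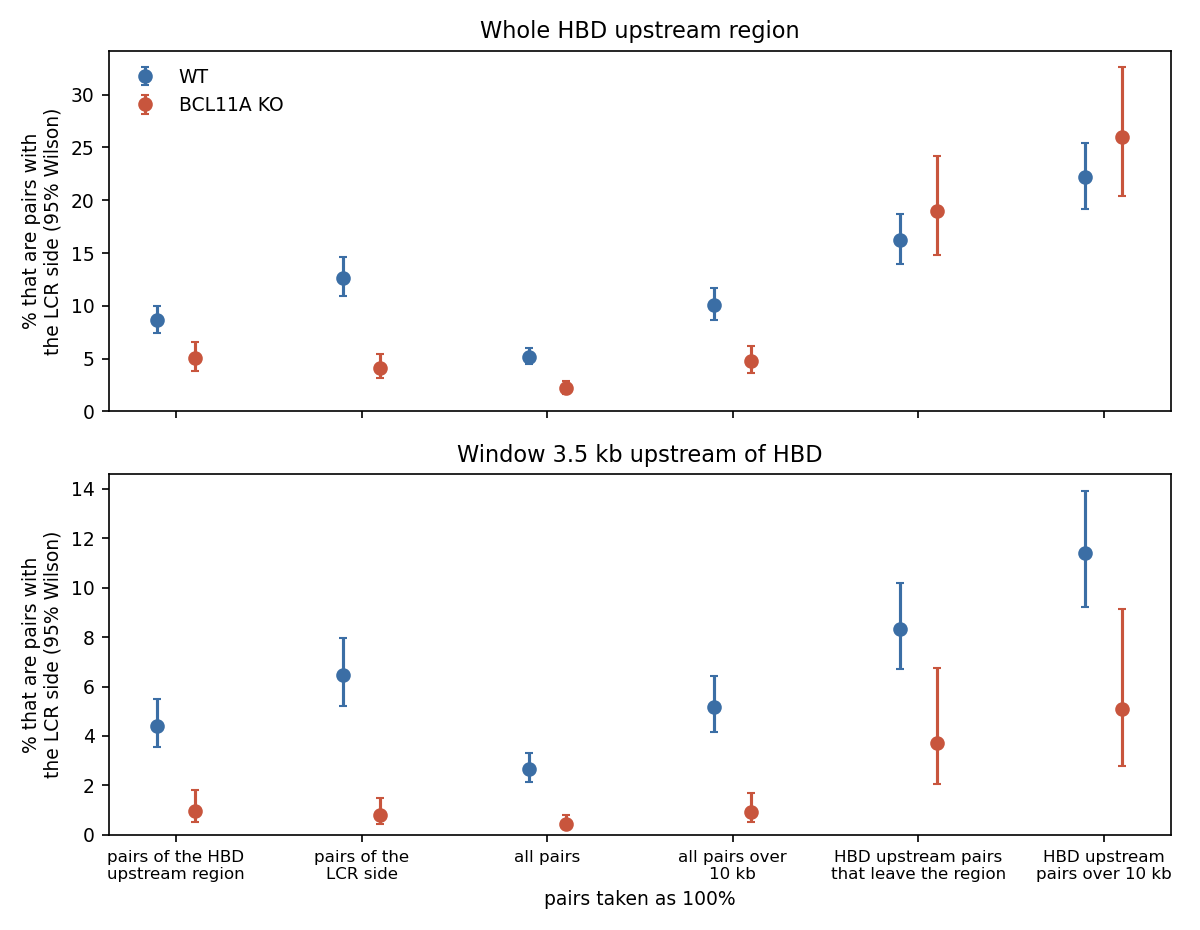
Share of pairs that join the LCR side to the whole HBD upstream region (top) or to its −3.5 kb window (bottom), for 6 choices of the pairs taken as 100% (x axis), with Wilson 95% intervals, WT in blue and BCL11A KO in red. For the whole region the order of the libraries turns between the first 4 choices and the last 2 (16.2% and 19%, then 22.2% and 26%), and for the −3.5 kb window WT is higher under all 6.

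The difference lay mainly in the −3.5 kb window. It had 79 contacts with the LCR side in WT (exact Poisson 95% interval 62.5 to 98.5) and 10 in BCL11A KO (4.8 to 18.4). The −1 kb window had 19 and 7, the −2.5 kb window 16 and 16, and the rest of the region 40 and 18. As shares of the HBD upstream pairs, the −3.5 kb window gave 4.42% in WT and 0.987% in BCL11A KO (ratio 0.223, exact Fisher test, adjusted p = 1.03e-06), a call lost with 1-kb bin pairs (0.583, adjusted p = 0.557) and GATC fragment pairs (0.563, adjusted p = 0.332). With distinct pairs and this denominator no other window passed the threshold: the adjusted p-values of exact Fisher test were 0.558 at −1 kb, 0.252 at −2.5 kb and 0.626 for the rest. Of the pairs that left the region, however, the −2.5 kb window took 1.68% in WT and 5.97% in BCL11A KO (ratio 3.55, exact Fisher test, adjusted p = 0.00208), where 31.6% of 294 region pairs were called. Of the outward pairs of the −2.5 kb window itself, 98 and 84, the LCR side took 16.3% and 19% (ratio 1.17, exact Fisher test, adjusted p = 0.829). Of the pairs of the LCR side, the rest of the region took 3.27% and 1.46% (ratio 0.446, exact Fisher test, adjusted p = 0.0138), where 35% were called.

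The make-up of the set, which needs no denominator outside it, differed in the same way. The −3.5 kb window held 51.3% of the members in WT (Wilson 95% interval 43.5 to 59.1) and 19.6% in BCL11A KO (11 to 32.5; exact Fisher test, adjusted p = 0.000816 over 11 categories). This call was lost with 1-kb bin pairs (ratio 0.556, adjusted p = 0.517) and GATC fragment pairs (0.567, adjusted p = 0.217), and with windows of 0.5 kb the ratio turned to 1.51 (adjusted p = 0.685, all by exact Fisher test). The −2.5 kb window held 10.4% (6.5 to 16.2) and 31.4% (20.3 to 45; exact Fisher test, adjusted p = 0.00413), a call that was lost with 1-kb bin pairs (adjusted p = 0.517), GATC fragment pairs (0.279) and windows of 0.5 kb (0.244). Of all pairs that left the region, whatever their other end, the −2.5 kb window held 10.3% and 31.3%, close to its shares of the members, and the −3.5 kb window held 52.6% and 29.1%. The −1 kb window, with 12.3% and 13.7%, and the rest of the region, with 26% and 35.3%, did not pass the threshold. In WT the −3.5 kb window thus held more members than all of the remaining region, whereas in BCL11A KO it held fewer than the −2.5 kb window or the rest.

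The contacts of the −3.5 kb window did not lie at its centre. The stretch from 3.5 to 4 kb upstream of *HBD* held 72 members in WT and 8 in BCL11A KO, whereas that from 3 to 3.5 kb held 7 and 2 and that from 4 to 4.5 kb held 18 and 3. Outward pairs of every kind gathered there too, 465 of 951 in WT against 60 of 268 in BCL11A KO. The members were 15.5% (12.5 to 19.1) and 13.3% (6.91 to 24.2) of them. A window of 0.5 kb centred at 3.5 kb held only 8 and 4, and the difference was lost there (exact Fisher test, adjusted p = 1). The stretch from 3.5 to 4 kb was chosen after its values were seen, and no test is given for it.

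Outward contacts of the −3.5 kb window were fewer as a whole in BCL11A KO. It had 500 pairs that left the HBD upstream region in WT and 78 in BCL11A KO, of which the LCR side took 15.8% (12.9 to 19.3) and 12.8% (7.12 to 22), a ratio of 0.811 (exact Fisher test, adjusted p = 0.777). Under this denominator 28.6% of 294 region pairs were called. By contrast, the interval with *HBE1*, the embryonic ε-globin gene, between *HBG2* and the LCR side received 51 of the 500 pairs in WT and 0 of the 78 in BCL11A KO, a share ratio of at most 0.377 (exact Fisher test, adjusted p = 0.0049). For *HBBP1* and *BGLT3*, a pseudogene and a noncoding RNA gene that lie between *HBD* and *HBG1*, the counts were 61 and 1 (exact Fisher test, adjusted p = 0.00753). The share of the window's outward contacts that went to the LCR side was hence not distinguishable between the libraries, whereas the share that went to the neighbouring *HBE1* interval was lower in BCL11A KO. For the whole HBD upstream region, 95 pairs went to that interval in the WT list and 2 in the KO list.

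Along the LCR side, HS1, the sequence between the sites and the flank had lower shares of the HBD upstream pairs in BCL11A KO, and HS3 made up more of the set. HS3 had 25 contacts in WT and 19 in BCL11A KO, and HS4 had 18 and 11. HS1 had 19 and 2, HS2 18 and 6, and HS5 12 and 4. The sequence between the sites had 38 and 5, and the flank 24 and 4. As shares of the HBD upstream pairs, the sequence between the sites (ratio 0.232, adjusted p = 0.00176), HS1 (1.06% in WT, 0.682 to 1.66, and 0.197% in BCL11A KO, 0.0542 to 0.717, adjusted p = 0.0318) and the flank (0.294, adjusted p = 0.0469) were lower in BCL11A KO by exact Fisher test, and HS2 to HS5 did not pass the threshold. None of these 3 calls held among the pairs that left the region, with adjusted p-values of exact Fisher test of 0.249 for the sequence between the sites, 0.447 for HS1 and 0.609 for the flank, and none held with 1-kb bin or GATC fragment pairs counted once. The call of the flank was also lost at the score cap (0.0637) and in the HBD upstream list alone (0.0589), and that of HS1 with site windows of 1 kb (0.21).

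**Figure D3:**
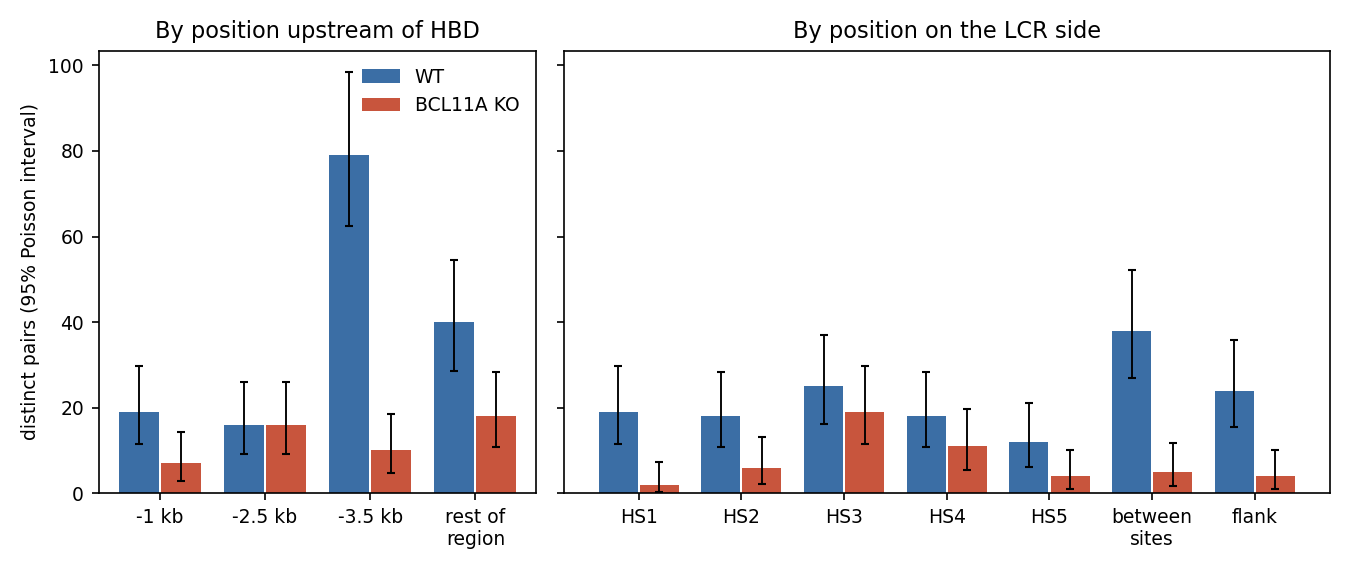
Distinct pairs of the set by HBD-side position (left: the −1, −2.5 and −3.5 kb windows and the rest of the region) and by LCR-side position (right: HS1 to HS5, the sequence between them and the flank), in WT (blue) and BCL11A KO (red), with exact Poisson 95% intervals. The intervals are far apart at −3.5 kb (79 and 10 pairs), and the 2 libraries are level at −2.5 kb (16 and 16).

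Within the set, HS3 held 16.2% of the members in WT (Wilson 95% interval 11.2 to 22.9) and 37.3% in BCL11A KO (25.3 to 51; exact Fisher test, adjusted p = 0.0103). The ratio was 2.29, and it was 2.38 with 1-kb bin pairs (adjusted p = 0.517) and 2.38 with GATC fragment pairs (adjusted p = 0.217), where the exact Fisher test no longer passed the threshold, nor did it in the LCR list alone (1.76, adjusted p = 0.0992). The sequence between the sites held 24.7% and 9.8% of the members, which did not pass the threshold (exact Fisher test, adjusted p = 0.0776). No other LCR-side category passed it. Joined into 1 category, a choice added after the data were seen, the 5 hypersensitive site windows held 92 of 154 members in WT (59.7%, 51.8 to 67.2), against 42 of 51 in BCL11A KO (82.4%, 69.7 to 90.4), for which no test is given. As a share of the pairs that left the HBD upstream region, HS3 rose from 2.63% to 7.09% (exact Fisher test, adjusted p = 0.00618), whereas as a share of the pairs of the LCR side it was 2.05% and 1.54% (exact Fisher test, adjusted p = 0.516).

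**Figure D4:**
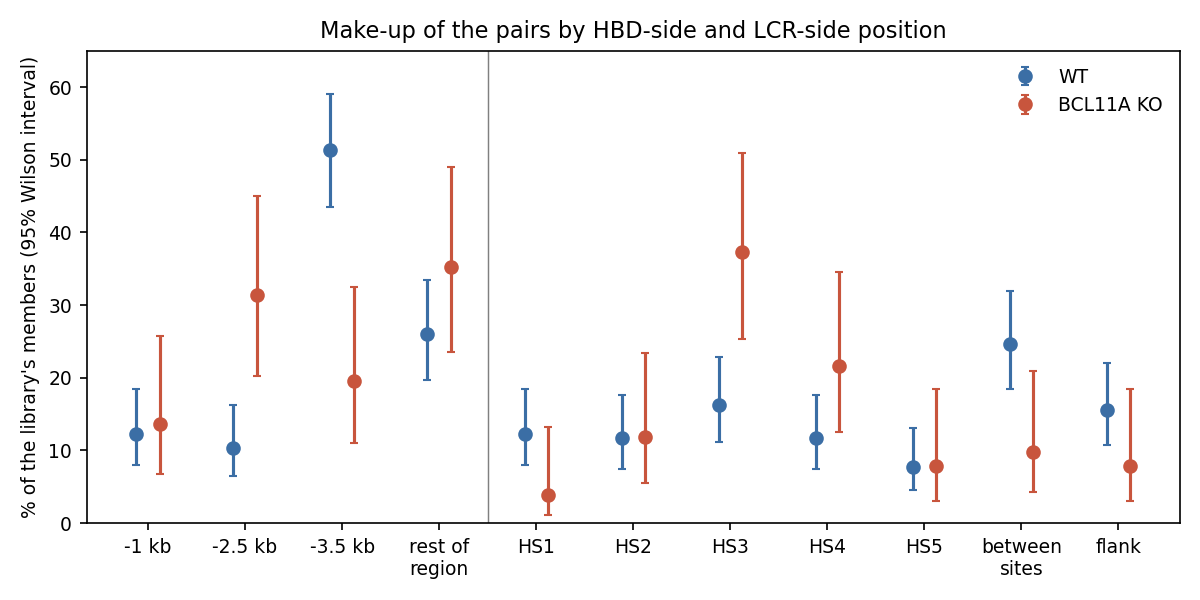
Share of the members of each library in each HBD-side window (left of the line) and LCR-side segment (right of it), with Wilson 95% intervals, for WT (blue, 154 members) and BCL11A KO (red, 51 members). The share at −3.5 kb is lower in BCL11A KO (51.3% and 19.6%), and those at −2.5 kb (10.4% and 31.4%) and HS3 (16.2% and 37.3%) are higher.

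Among the LCR-side segments, the density of contacts per kb was highest at HS3 in both libraries, with 12.5 pairs per kb in WT and 9.5 in BCL11A KO. It was 9.5 and 1 at HS1, 4.58 and 0.603 between the sites, and 2.55 and 0.426 in the flank. The windows differed in the number of GATC sites at which a fragment can begin, with 8 in HS3, 5 in HS1, 4 in HS2 and 3 in both HS4 and HS5. The part of site density in these counts was not tested. On the HBD side the −3.5 kb window held 4 GATC sites and 78.9 contacts per kb in WT against 9.99 in BCL11A KO, and the −2.5 kb window held 5 sites and 16 contacts per kb in both.

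The members were also counted by window and LCR-side segment together. As shares of the HBD upstream pairs, only the −3.5 kb window with the sequence between the sites (exact Fisher test, adjusted p = 0.00279) and with HS1 (0.0208) passed the threshold. Among the pairs that left the region neither did (0.146 and 0.167). There the −1 kb window with HS3 (0.0191) and the −2.5 kb window with HS3 (0.0491) and HS4 (0.0261) passed by exact Fisher test. These were higher in BCL11A KO, on WT counts at or under the floor. In WT the leading cells all belonged to the −3.5 kb window, which held 79 of the 154 members, with 27 contacts to the sequence between the sites, 13 to the flank and 12 to HS1. In BCL11A KO the same cells held 2, 1 and 0 contacts. The leading cells there were the rest of the region with HS3 (7 contacts, 11 in WT), the −1 kb window with HS3 (6, against 3 in WT), and the −2.5 kb window with HS3 and with HS4 (5 each, against 3 and 2 in WT). The −3.5 kb window had 10 contacts with HS2 in WT and 1 in BCL11A KO, 8 and 1 with HS3, 3 and 2 with HS4, and 6 and 3 with HS5. HS3 and HS4 were reached from every window in both libraries, whereas no contact joined HS1 to the −1 kb window or HS5 to the −2.5 kb window in either. Where a cell held 0 contacts, the floor still allows 3, which is 1.95% of the members in WT and 5.88% in BCL11A KO.

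The end of the LCR side nearest *HBE1* was empty in BCL11A KO. Its first kb held 13 members in WT and 0 in BCL11A KO, and the kb just outside it held 6 pairs and 0. At the far end, the last kb of the flank held 2 members in WT and 0 in BCL11A KO, with 1 pair in each library in the kb beyond. On the HBD side, the first 0.5 kb upstream of *HBD* held 0 contacts with the LCR side in either library. Hardly any pair was listed there at all, only 3 for WT and 0 for the KO library, and 0 left the region. With 0 outward pairs, the stretch cannot show whether contact with the LCR side was lacking there. The 0.5 kb just downstream of the start, in the gene, held 3 and 2 contacts with the LCR side. The last 0.5 kb of the region held 4 and 4 and the 0.5 kb beyond it 2 and 3, so the limits of the set did not cut through a dense group of pairs on that side.

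Few contacts recurred exactly in the 2 libraries, but at the scale of 1 kb most of those in BCL11A KO fell where WT also had one. Exact recurrence was rarer in the set than over the whole lists, where 2966 pairs in WT and 2310 in BCL11A KO made 4896 together. The 154 members in WT joined 60 pairs of 1-kb bins and the 51 in BCL11A KO joined 28, of which 24 were in both, 40% of the WT bin pairs and 85.7% of those of BCL11A KO. On GATC fragments, WT had 81 pairs and BCL11A KO 34, with 17 in both (21% and 50%). The overlaps of bin and fragment pairs over the whole lists were not counted, so these shares cannot be called particular to the set. When each pair of fragments was counted once, the −3.5 kb window had 42 contacts with the LCR side in WT and 10 in BCL11A KO, and the whole set was 81 of 546 and 34 of 231 fragment pairs of the region. For the whole set the ratio of the shares was then 0.992. Counting fragment pairs once left fewer contacts to test, and pairs of ends that share both fragments need not be independent molecules. The part of either in the change of the ratios was not tested.

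The 2 baits could each have captured most of these contacts. Of the members that ended in the LCR proper, 93 of 130 in WT (71.5%) and 40 of 47 in BCL11A KO (85.1%) were in the lists of both baits. For the −3.5 kb window these were 41 of 66 in WT and 6 of 9 in BCL11A KO. Counted from the LCR list alone, the members of the −3.5 kb window thus numbered 41 and 6. All contacts of the flank came from the HBD upstream list, since the flank is outside the LCR bait. How well each bait was captured in each library is not known from the lists, and its part in these counts was not tested.

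Contacts of the LCR side with 4 other regions of the locus were tested against the set. The region named for *HBBP1* and *BGLT3* (chr11:5261214-5270186) also holds a part of *HBG1*. That named for *HBG1*/*2* ran through chr11:5270187-5281587, which reaches beyond the *HBG2* start. *HBB*, the adult β-globin gene, had 68 in WT and 28 in BCL11A KO, a ratio of 0.412 against 0.331 for the HBD upstream region, which could not be told apart (exact Fisher test, adjusted p = 0.483). The *HBD* gene itself had 14 and 7 (exact Fisher test, adjusted p = 0.483). *HBBP1* and *BGLT3* had 44 and 74, a ratio of 1.68 that differed from that of the HBD upstream region (exact Fisher test, adjusted p = 6.26e-11). The ratio of the 2 ratios was 0.197, and with 1-kb bin pairs it was 0.467 and lost the call (exact Fisher test, adjusted p = 0.0746). *HBG1*/*2* had 58 and 124, a ratio of 2.14 (exact Fisher test, adjusted p = 2.83e-17). The *HBE1* interval, which was not tested against the set, had 91 and 103. The contacts of the LCR side with the HBD upstream region were thus fewer in BCL11A KO, as were those of *HBB*, while those of the fetal genes were more numerous, in counts that share the LCR bait and are not independent of each other.

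**Figure D5:**
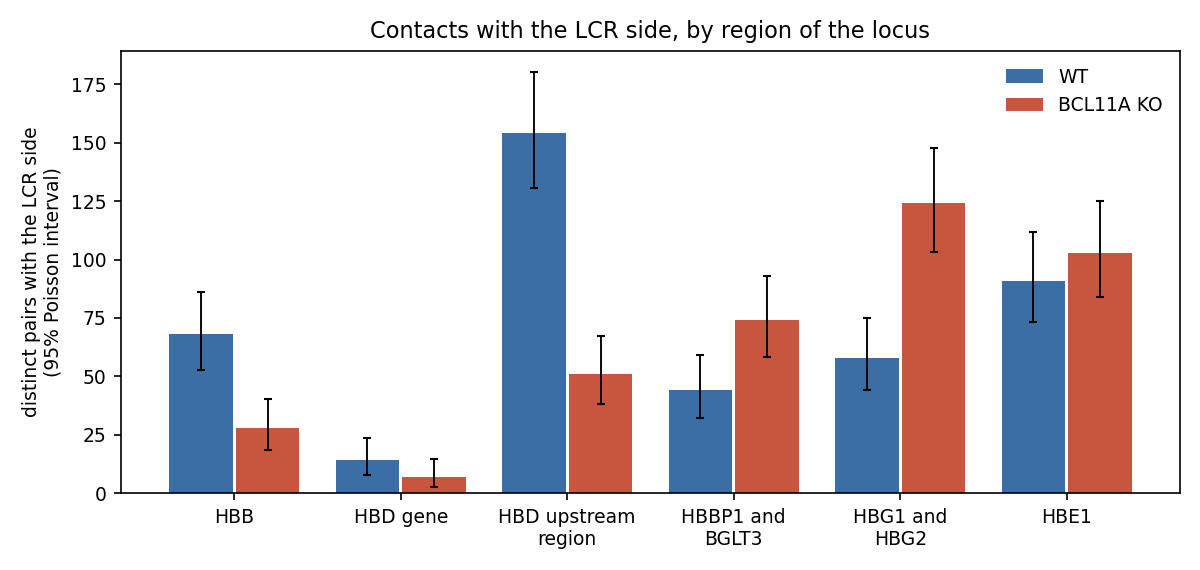
Distinct pairs with an end on the LCR side, by the region that held the other end (x axis, in order along the chromosome from *HBB* to *HBE1*), in WT (blue) and BCL11A KO (red), with exact Poisson 95% intervals. *HBB* (68 and 28) and the HBD upstream region (154 and 51) were lower in BCL11A KO, and *HBBP1* and *BGLT3* (44 and 74) and *HBG1*/*2* (58 and 124) were higher.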

How the data were processed

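The authors captured 4 bait regions of the β-globin locus from both genotypes, aligned reads to hg19 (the submitters' processing notes name Bowtie2 2.2.8 and Picard), pooled the 3 replicates of a genotype, and retained interactions whose BF score was at least 20. The deposited values are the 2 positions of an interaction with the BF score; read numbers are not given. The 6 samples of single replicates were not analysed here, and the restriction enzyme is not given in the sources used here.

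Mirrored and repeated lines were collapsed to distinct pairs of ends. The deposited start was read as the first base of an end, since ends then met GATC sites. The 4 unnamed sorted lists in each file were assigned to the bait that held an end of 100% of their pairs. Ends were placed by their midpoints, with transcription starts from GENCODE release 44 on GRCh37, and site distances were read from the study's drawing of the locus. Two-sided Fisher's exact tests were adjusted by Benjamini-Hochberg over all ordered region pairs with at least 5 pairs, over 11 make-up categories, or over 4 comparison regions. The sites named are the anchors, segments and compared genes, the ends used by most members (3 per side, of which some on the HBD side are not reported here) and the 3 leading cells per library with ties. The regions, members and lists were chosen with earlier results of these data known. Python 3.11.15, numpy 2.4.6, scipy 1.17.1 and matplotlib 3.10.9 were used, and the counting and tests were tested on simulated lists.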

Additional observations from a re-analysis of the deposited data

How the results depend on the processing

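Of 253 alternative values, 176 kept the direction and the side of the threshold, 29 kept the direction but lost the call, 11 gained a call and 37 turned direction. Some of these 37 lost a call too, such as that of the whole set among pairs leaving the region. All values here are ratios of BCL11A KO to WT. Among pairs leaving the region, or among its pairs with ends at least 10 kb apart (added after the data were seen), the ratio became 1.18 and 1.17 for the whole set, 1.31 and 1.31 at −1 kb, 1.6 and 1.6 for the rest of the region, 1.18 and 1.18 at HS2, and 1.18 and 1.18 at HS5. HS1, the sequence between the sites and the flank lost their calls there, and −2.5 kb (3.55 and 3.55) and HS3 (2.7 and 2.69) gained one. As shares of the LCR-side pairs it was 0.991 at −2.5 kb, 0.753 at HS3 and 0.606 at HS4, and HS2 (0.33) and the rest of the region (0.446) gained a call. As shares of all pairs it was 0.976 at HS3 and 0.785 at HS4, and as shares of all pairs at least 10 kb apart 0.867 at HS4. With the window's own pairs as the denominator, −1 kb gave 1.59. With the window's own outward pairs (added later), −1 kb gave 2.15, and −3.5 kb kept its direction at 0.811 without the call.

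With bin pairs of 1 kb counted once, the whole set gave 1.05, the rest of the region 1.37 and −3.5 kb 0.583, without the call. The make-up ratios were then 0.659 at −1 kb, 0.804 at HS2 and 0.714 at HS5, and those of −2.5 kb (1.56), −3.5 kb (0.556) and HS3 (2.38) lost their calls. With GATC fragment pairs, the whole set (0.992) and −3.5 kb (0.563, make-up 0.567) lost their calls, as did −2.5 kb (1.83) and HS3 (2.38) in the make-up, where −1 kb gave 0.993, and the ratio was 1.07 at HS2, 1.18 at HS5 and 1.14 for the rest. HS1, the sequence between the sites and the flank lost their calls under both units, and the comparison with *HBBP1* and *BGLT3* with bin pairs (0.467). Fewer contacts remain under both units, and the cause was not tested further.

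With windows of 0.5 kb, −3.5 kb gave 0.882 without the call and 1.51 in the make-up, where −2.5 kb (4.53) lost its call and the rest gave 0.91. The rest then gained a call as a share of the HBD upstream pairs (0.532). Windows of 2 kb gave 1.01 at −1 kb. HS1 lost its call with site windows of 1 kb, and the flank at the score cap (0.306) and in the HBD upstream list (0.293). Lower make-up shares in BCL11A KO gained a call at HS1 (at the score cap and with site windows of 3 kb, on KO counts under the floor) and between the sites (0.519 with site windows of 1 kb, and with 3 kb on a KO count of 0). Site windows of 3 kb gave 0.882 at HS4 and 0.805 for HS5 in the make-up. For HS2 in the make-up, the ratio was 0.604 with windows of 1 kb, 0.913 at the score cap, 0.894 in the HBD upstream list and 0.681 in the LCR list, where HS3 gave 1.76 without the call. At the score cap, the set against the *HBD* gene gave 1.29. Shares from the LCR list alone could not be had, since its pairs from the region all end in the LCR. No paired analysis was possible because the replicates were merged in the lists and single replicates were not analysed here.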
